A study of Mus musculus with 24 samples.

Results

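The change from long-term haematopoietic stem cells to pre-megakaryocyte-erythroid progenitors was measured in mice that the labels describe by Scl-Cre and a knock-in of mouse Jak2. The comparison used 6 of the 24 libraries of the series, chosen by their sample labels alone: 3 of sorted pre-MegE cells (preMegE) and 3 of sorted LT-HSC (LTHSC). The series sampled LTHSC, preMegE and megakaryocyte progenitors from 3 Jak2 lines, with 3 libraries in each of 8 groups. Every library was bulk RNA of a sorted bone marrow population, read by Smart-seq2, a full-length method for small amounts of RNA.

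The preMegE and LTHSC groups differed in the sorted population and shared all else that the labels give. Both came from the bone marrow of C57BL/6N mice of the knock-in line (KI), carried Scl-Cre, had been given tamoxifen over 5 days and yielded cells by flow sorting 12 weeks after that. Scl-Cre places the Cre recombinase under Scl control, which is active in blood stem and progenitor cells, so the controls of this comparison carry the driver and the knock-in too. The labels do not say which Jak2 sequence the knock-in encodes, and the line was not taken to be wild type. A second line (VF), labelled Vav1-Cre with a Jak2 mutation of valine to phenylalanine, gave 3 preMegE and 3 LTHSC libraries for a test of whether changes differed between the lines. The labels give these VF libraries the same tamoxifen over 5 days and the same 12 weeks after it. Vav1-Cre acts across blood cells, so Cre driver and Jak2 allele change together between the lines. The labels do not give sorting gates, age or pooling, and do not say that replicates came from separate animals, so p-values measure the spread between these libraries, which may be technical.

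LT-HSC are mostly quiescent cells that can rebuild the whole blood system, and their state depends on factors such as Mecom and Hlf and on cytokine signals carried by JAK2. Pre-MegE cells are cycling bone marrow progenitors that have lost most lymphoid and granulocyte potential and can form both megakaryocytes and red cells. On the red cell path GATA1 and KLF1 switch on the receptors for erythropoietin and transferrin, heme synthesis and red cell membrane genes, while the megakaryocyte path uses platelet adhesion receptors and granule proteins.

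Total counts were 14642836, 28125309 and 23668480 in preMegE 1 to 3 and 12800097 to 16717145 in LTHSC. PreMegE 1 stood apart: its log2 values correlated with those of preMegE 2 and 3 at 0.848 and 0.863, against 0.963 between preMegE 2 and 3 and 0.94 to 0.942 among LTHSC. Its 100 most abundant genes held 29.7% of its counts, against 14.2% to 16.2% in the other 5 libraries, and its TMM scaling factor was 0.538, against 0.987 to 1.24. Genes under 1 kb ran 2.32 log2 units higher in it than in preMegE 2 and 3 (median of 1141 genes), whereas genes of 2 to 4 kb ran 0.55 lower. Malat1, a nuclear non-coding RNA, was at 14120 CPM in preMegE 1, against 973.5 to 4131 CPM in the other 5. CPM values are counts relative to library size scaled by TMM over the 6 libraries, and preMegE 1 is left out in a second fit whose main values stand beside the results. In bulk RNA, fewer cells of a type and less RNA per cell cannot be told apart.

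**Figure D1:**
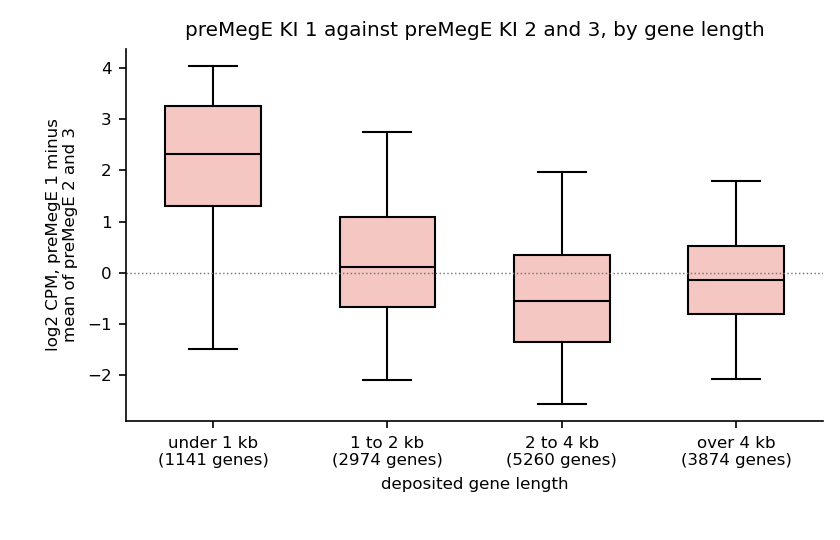
Log2 CPM of preMegE 1 minus the mean of preMegE 2 and 3 (vertical axis) for tested genes grouped by deposited length (horizontal axis). Boxes span the interquartile range with the median as a line and whiskers reach the 5th and 95th percentiles; the median is 2.32 under 1 kb and -0.55 at 2 to 4 kb.

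Jak2 (chr19:29251803-29313095, GRCm38.p6), the targeted gene, was at 29.0, 35.4 and 31.3 CPM in preMegE, against 58.3, 40.9 and 66.1 CPM in LTHSC. Every preMegE library was below every LTHSC library, but the difference did not pass the test (log2 fold change -0.79 ± 0.29 SE, adjusted p = 0.0828), and an exact 2-sided permutation test of 3 against 3 gave p = 0.1, the smallest it can give. In the larger fit of 12 libraries described with the VF line, the same difference passed (adjusted p = 0.0284), so the call depends on the libraries fitted. Jak2 is a cytokine receptor kinase, and both groups expressed it.

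Of 13249 genes tested, 1283 (9.68%) were higher and 1333 (10.1%) lower in preMegE than in LTHSC at an adjusted p under 0.05 by the edgeR quasi-likelihood test (Benjamini-Hochberg over all genes), together 19.7%. The groups did not overlap for 6342 genes, 47.9% of those tested, and 2615 of the 2616 called genes were among them. Stem cell, interferon and immediate-early genes made up blocks of falling genes, and cell cycle, red cell and mitochondrial genes blocks of rising ones, as the plot of called list members shows. Without preMegE 1, 2616 genes (19%) were higher and 2486 (18%) lower, 2589 genes were called in both fits and 0 of those called with all 6 libraries had the opposite sign. Without LTHSC 1, 2 or 3 the calls fell to 457, 377 and 387, and without preMegE 3 to 1729.

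**Figure D2:**
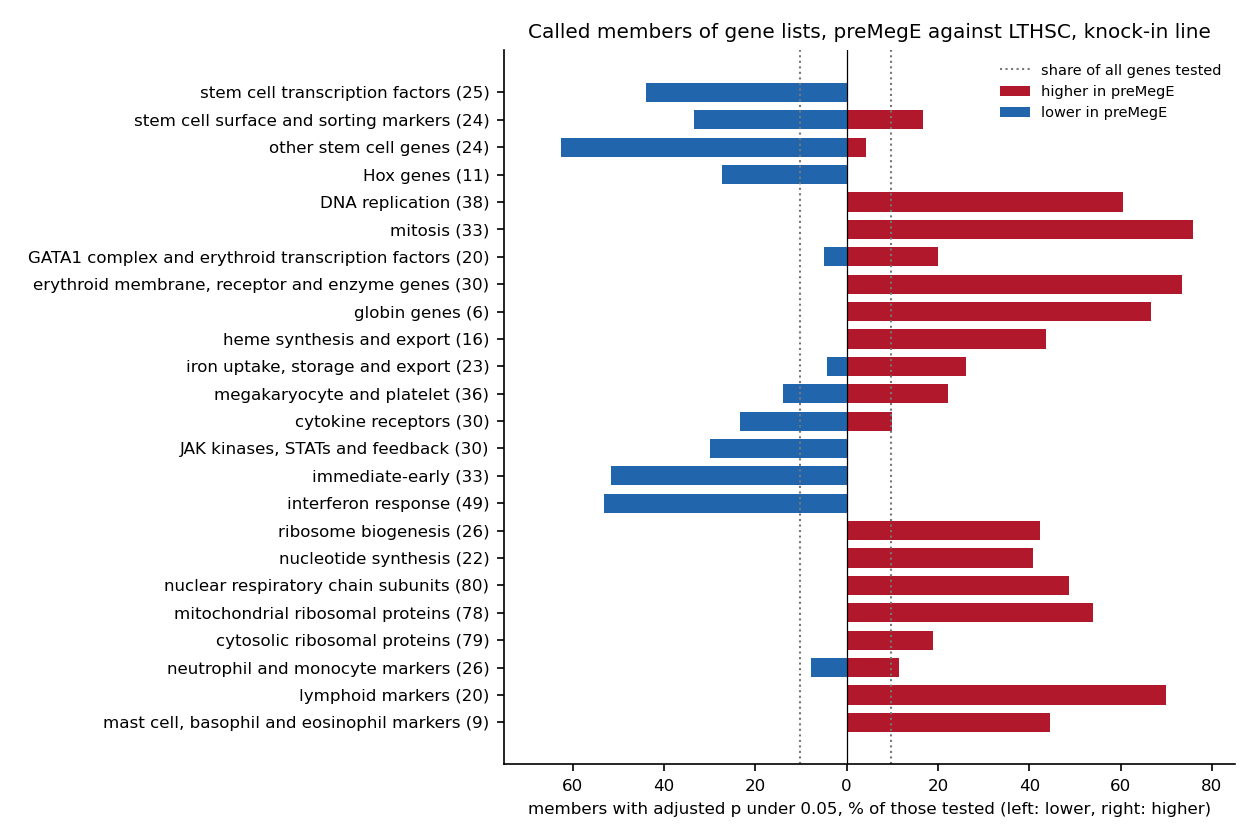
Share of tested members of each gene list (number tested in brackets) that were lower (left) or higher (right) in preMegE than in LTHSC at an adjusted p under 0.05, in % of members tested. Dotted lines mark the shares over all genes tested, 9.68% higher and 10.1% lower; 25 of 33 mitosis genes were higher and 26 of 49 interferon genes lower.

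Stem cell transcription factors fell and none rose: 11 of 25 were lower in preMegE, with a list median of -1.61 on the log2 scale beside -0.00 over all genes tested. Mecom, a zinc finger factor required for stem cell maintenance, was at 2.92, 7.49 and 4.75 CPM in preMegE and 109, 103 and 126 CPM in LTHSC (log2 fold change -4.45 ± 0.41 SE, adjusted p = 0.00233). Hlf, a factor of quiescent stem cells, was at 22.6, 14.2 and 11.4 CPM in preMegE and 224, 216 and 206 CPM in LTHSC (log2 fold change -3.75 ± 0.36 SE, adjusted p = 0.0025). Both genes separated the groups without overlap and by more than the spread in either group. Hoxb5, whose reporter marks long-term stem cells, was at 1.14, 1.15 and 1.33 CPM in preMegE, against 12.6, 10.4 and 11.9 CPM in LTHSC (log2 fold change -3.26 ± 0.47 SE, adjusted p = 0.00699). Nkx2-3, a homeobox factor, fell by 3.05 on the log2 scale (adjusted p = 0.00569). Without preMegE 1, 20 of the 25 were lower and the median was -1.59. Of 11 tested Hox genes, which set the pattern of stem and progenitor cells, 3 were lower (Hoxb5, Hoxa9 and Hoxa10), and 8 were without preMegE 1, where Hoxa10 had a log2 fold change of -2.73 (adjusted p = 0.000339). Gata2, a factor shared by stem cells and early erythroid and megakaryocyte progenitors that was added here after its values were seen, was at 102, 188 and 125 CPM in preMegE and 223, 262 and 436 CPM in LTHSC and did not pass (log2 fold change -1.15 ± 0.41 SE, adjusted p = 0.0787).

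Other stem cell genes fell in the same way, 15 of 24 tested, with 1 higher. Ndn, an imprinted growth suppressor, was at 1.27, 2.68 and 0.985 CPM in preMegE and 42.1, 34.8 and 45 CPM in LTHSC (log2 fold change -4.59 ± 0.48 SE, adjusted p = 0.00348). Ltb, a tumour necrosis factor family ligand, was at 66.6, 32.9 and 32.7 CPM in preMegE and 609, 606 and 673 CPM in LTHSC (log2 fold change -3.84 ± 0.47 SE, adjusted p = 0.0044). For both, the highest preMegE library was far below the lowest LTHSC library. Mmrn1, a multimerin stored in platelets and also found in stem cells, and Sult1a1, a sulfotransferase, fell with log2 fold changes of -3.63 and -4.49. Clca3a1, a membrane-associated protein, was the list's riser at 60.4, 69.3 and 66.2 CPM in preMegE and 12.8, 28.2 and 31.3 CPM in LTHSC (log2 fold change 1.44 ± 0.37 SE, adjusted p = 0.034).

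Of 24 genes whose products are used to sort stem and progenitor cells, 4 rose and 8 fell, and without preMegE 1, 5 rose and 13 fell. Procr, the endothelial protein C receptor that marks stem cells, was at 1.65, 1.32 and 1.5 CPM in preMegE and 68.9, 65.5 and 65.5 CPM in LTHSC (log2 fold change -5.49 ± 0.32 SE, adjusted p = 0.000899). Ly6a, which encodes Sca-1, was at 15.3, 7.87 and 3.77 CPM in preMegE and 165, 171 and 142 CPM in LTHSC (log2 fold change -4.17 ± 0.53 SE, adjusted p = 0.00512), and its log2 fold change without preMegE 1 was -4.78. Cd48, absent from the surface of LT-HSC, was at 138, 152 and 224 CPM in preMegE and 5.36, 2.44 and 0.482 CPM in LTHSC (log2 fold change 5.97 ± 0.81 SE, adjusted p = 0.0061). For these 3 genes, known to differ in this way between the populations the labels name, every library lay on its own group's side of a wide gap. Robo4, Emcn, Alcam, Esam and Tek, adhesion and angiopoietin receptor genes shared with endothelium, fell with log2 fold changes of -3.20, -3.29, -2.94, -2.16 and -2.22. Itga2b, the CD41 integrin of megakaryocytes, was at 199, 383 and 186 CPM in preMegE, against 66.3, 64.1 and 92.5 CPM in LTHSC, and rose (log2 fold change 1.78 ± 0.39 SE, adjusted p = 0.0221). Slamf1, which encodes CD150 and is carried by LT-HSC and pre-MegE cells, was at 13.6, 25.7 and 20.8 CPM in preMegE and 43.8, 37.0 and 28.7 CPM in LTHSC and did not pass (log2 fold change -0.86 ± 0.34 SE, adjusted p = 0.105). Kit, the stem cell factor receptor, did not pass at 108, 412 and 326 CPM in preMegE and 641, 698 and 625 CPM in LTHSC (log2 fold change -1.21 ± 0.54 SE, adjusted p = 0.136), and preMegE 1 was its lowest library. Without preMegE 1, Kit had a log2 fold change of -0.84 (adjusted p = 0.0061). Cd34, Flt3, Eng and Cd27 did not pass with 6 libraries, with log2 fold changes of -0.94, -1.04, -0.79 and -0.93. In the fit without preMegE 1, Cd34, Eng and Cd27 passed (edgeR adjusted p = 0.0327, 0.0301 and 0.00561) and Flt3 did not (0.218).

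**Figure D3:**
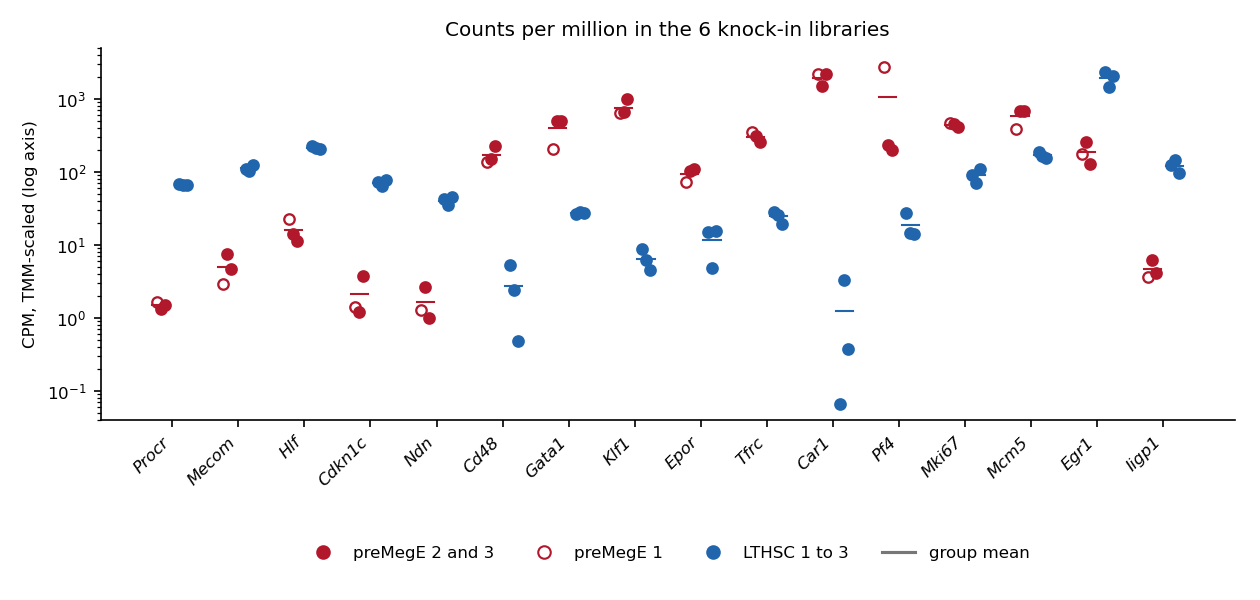
TMM-scaled CPM on a log axis for 16 genes (horizontal axis) in the 3 preMegE libraries (red, left of each pair, preMegE 1 as an open circle) and 3 LTHSC libraries (blue, right), with a bar at each group mean. Procr, Mecom, Hlf, Cdkn1c, Ndn, Egr1 and Iigp1 are lower in every preMegE library and the other 9 genes higher, and Pf4 in preMegE 1 lies about an order of magnitude above preMegE 2 and 3.

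The genes that hold stem cells out of the cycle and those that drive division moved in opposite ways for most of the named members. Cdkn1c, the imprinted CDK inhibitor p57 of quiescent stem cells, was at 1.40, 1.22 and 3.81 CPM in preMegE and 71.9, 64.0 and 78.8 CPM in LTHSC (log2 fold change -5.03 ± 0.52 SE, adjusted p = 0.00348). Of 17 cell cycle inhibitors and early cyclins, 5 fell (29.4%), among them Ccng2, Rbl2 and Btg1, all linked to cell cycle exit. In the same list 2 rose (11.8%), and over all genes 10.1% fell and 9.68% rose. Without preMegE 1, 6 fell and 4 rose, beside 18% and 19% over all genes. Cdk6, the kinase that starts the G1 phase, was at 1886, 1159.7 and 1472 CPM in preMegE and 454, 424 and 373 CPM in LTHSC (log2 fold change 1.85 ± 0.47 SE, adjusted p = 0.0314). Cdkn1a, the CDK inhibitor p21, rose, unlike Cdkn1c, Ccng2, Rbl2 and Btg1, at 503, 73.6 and 43.7 CPM in preMegE and 35.1, 6.48 and 9.59 CPM in LTHSC (log2 fold change 3.6 ± 1.07 SE, adjusted p = 0.0495). PreMegE 1 was the highest library for Cdkn1a, and without it the log2 fold change was 1.78 (adjusted p = 0.0459).

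DNA replication genes rose, 23 of 38 with none lower and a median of 1.47, and 35 of 38 rose without preMegE 1. Mcm5, a subunit of the replicative helicase, was at 388, 692 and 694 CPM in preMegE and 186, 166 and 153 CPM in LTHSC (log2 fold change 1.81 ± 0.41 SE, adjusted p = 0.0234). Cdc6, which loads that helicase at origins, was at 79.6, 169 and 211 CPM in preMegE and 39.8, 33.4 and 27.3 CPM in LTHSC (log2 fold change 2.20 ± 0.41 SE, adjusted p = 0.0144). In both genes preMegE 1 was the lowest preMegE library and still above every LTHSC library. Ccne1, the cyclin of S phase entry, had the largest log2 fold change of the list (3.68 ± 0.72 SE, adjusted p = 0.0166), at 71.1, 127 and 229 CPM in preMegE and 20, 3.17 and 10.2 CPM in LTHSC. Mcm2, Mcm3 and Mcm6, other subunits of the same helicase, did not pass with 6 libraries, with log2 fold changes of 1.41, 1.15 and 0.92 and adjusted p-values of 0.0859, 0.103 and 0.205. Without preMegE 1 the 3 had log2 fold changes of 1.79, 1.44 and 1.22 and all passed. Fen1, which trims Okazaki fragments, was at 142, 561 and 707 CPM in preMegE and 166, 149 and 128 CPM in LTHSC and missed the threshold in the same way (log2 fold change 1.67 ± 0.58 SE, adjusted p = 0.0736). PreMegE 1 lay within the LTHSC range for Fen1.

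E2F factors are known to drive replication genes through sites near the start of transcription. In RefSeq windows of GRCm38.p6 from 250 bases before to 50 after the start, the letters TTTGGCGC, TTTCCCGC, TTTCGCGC or TTTGCCGC on either strand occurred in 12 of the 31 replication genes that had a window (38.7%) in 2.26% of all 32851 windows and in 4.72% of the 10508 tested genes with a window, which were 79.3% of those tested. Among the called replication genes with a window the share was 7 of 19 (36.8%), and in the mitosis list it was 1 of 29 (3.45%). The 200 bases before the start of Cdc6 and Mcm5, both called higher, are shown 5′ to 3′ with matches in capitals, 2 overlapping matches in Mcm5. Both were picked for holding a match there, and called members of smaller adjusted p without a printed match were passed over. A match is a description of the letters and not a binding site.
Cdc6, chr11:98907951-98908150, plus strand: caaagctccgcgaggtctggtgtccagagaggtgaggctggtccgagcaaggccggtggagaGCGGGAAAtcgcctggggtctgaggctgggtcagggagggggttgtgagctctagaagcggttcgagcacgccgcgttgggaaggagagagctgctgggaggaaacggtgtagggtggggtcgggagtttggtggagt
Mcm5, chr8:75109309-75109508, plus strand: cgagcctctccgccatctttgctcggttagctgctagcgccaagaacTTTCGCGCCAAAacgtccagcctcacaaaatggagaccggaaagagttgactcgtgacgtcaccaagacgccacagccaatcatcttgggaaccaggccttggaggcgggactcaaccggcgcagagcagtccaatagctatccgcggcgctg

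Mitosis genes rose as well, 25 of 33 with none lower and a median of 1.72, and 30 of 33 without preMegE 1. Mki67, the Ki-67 proliferation antigen, was at 472, 460.4 and 409 CPM in preMegE and 91.8, 70.7 and 109.7 CPM in LTHSC (log2 fold change 2.30 ± 0.36 SE, adjusted p = 0.00865). Cenpa, the centromere histone, was at 376, 238 and 264 CPM in preMegE and 41.9, 34.5 and 44.7 CPM in LTHSC (log2 fold change 2.86 ± 0.34 SE, adjusted p = 0.00419). Both differences were several times the spread within either group. Ube2c, the ubiquitin carrier of the anaphase-promoting complex, Cdca3 and Cdca8 rose by log2 fold changes of 3.24, 2.89 and 2.37.

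The transcription factors of the red cell path divided into a few that rose steeply and many that did not pass. Klf1, the erythroid Krüppel-like factor, was at 639.7, 656 and 989 CPM in preMegE and 8.93, 6.14 and 4.50 CPM in LTHSC (log2 fold change 6.87 ± 0.55 SE, adjusted p = 0.00174). Gata1, the zinc finger factor that KLF1 and most red cell genes depend on, was at 208, 495 and 493 CPM in preMegE and 26.5, 28.7 and 27.5 CPM in LTHSC (log2 fold change 3.85 ± 0.45 SE, adjusted p = 0.00419). The Gata1 libraries of LTHSC lay within a narrow range, and preMegE 1 was the lowest of its group. Gfi1b, a repressor that partners GATA1, was at 218, 451 and 573 CPM in preMegE and 134, 152 and 165 CPM in LTHSC and lay at the threshold (log2 fold change 1.47 ± 0.44 SE, adjusted p = 0.05). E2f2, an erythroid cell cycle factor, rose with a log2 fold change of 1.76. Lyl1, a stem cell factor related to Tal1, fell by 0.99 on the log2 scale (adjusted p = 0.0489). In all, 4 of 20 rose (20%) and 1 fell (5%), beside 9.68% and 10.1% over all genes, with a median of 0.20. Without preMegE 1, 5 rose and 4 fell, beside 19% and 18% over all genes, with a median of 0.00.

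Red cell membrane, receptor and enzyme genes rose in 22 of 30 cases, none fell and the median was 3.96. Tfrc, the transferrin receptor for iron uptake, was at 349, 308 and 257 CPM in preMegE and 28.6, 25.6 and 19.5 CPM in LTHSC (log2 fold change 3.63 ± 0.34 SE, adjusted p = 0.00233). Atp1b2, a sodium pump subunit, was at 133, 459 and 473 CPM in preMegE and 0.794, 0.487 and 1.29 CPM in LTHSC (log2 fold change 8.69 ± 0.76 SE, adjusted p = 0.00203). Sphk1, which makes sphingosine 1-phosphate, was at 206, 188 and 247 CPM in preMegE and 0.397, 0 and 0 CPM in LTHSC (log2 fold change 10.77 ± 1.02 SE, adjusted p = 0.00249). All 3 were low or near 0 in every LTHSC library and several times higher or more in every preMegE library. Ermap, an erythroblast membrane protein, was at 491, 276 and 343 CPM in preMegE and 0.0662, 1.41 and 1.55 CPM in LTHSC (log2 fold change 8.48 ± 0.96 SE, adjusted p = 0.00369). Epor, the erythropoietin receptor, was at 71.8, 102 and 108 CPM in preMegE and 15.1, 4.77 and 15.5 CPM in LTHSC (log2 fold change 3.00 ± 0.48 SE, adjusted p = 0.00948). Slc4a1, the band 3 anion exchanger of later red cells, added here after its values were seen, was at 0.127, 4.21 and 0.942 CPM in preMegE and 1.06, 0 and 0.643 CPM in LTHSC and did not pass (log2 fold change 1.67 ± 1.5 SE, adjusted p = 0.445). Without preMegE 1, 23 of 30 rose and the median was 3.90.

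GATA factors bind the core letters GATA, and AGATAA or TGATAA on either strand occurred in 18.6% of all windows. The window of Ermap, picked for holding a match, held TGATAA, here on the reverse strand as TTATCA. Only 21 of the 30 tested red cell genes (70.0%) had a window, below the 79.3% of all tested genes, and no share of the list is given. The 200 bases before the Ermap start are shown with the match in capitals.
Ermap, chr4:119189996-119190195, minus strand: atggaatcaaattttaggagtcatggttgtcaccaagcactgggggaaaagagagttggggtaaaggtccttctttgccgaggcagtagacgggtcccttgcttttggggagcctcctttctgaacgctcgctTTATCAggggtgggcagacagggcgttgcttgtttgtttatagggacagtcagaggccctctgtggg

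Globin genes rose to a level that differed among the preMegE libraries. Hba-a1 and Hba-a2, the adult alpha globin genes, are so alike that counts of one may belong to the other, and Hba-a1 was at 1326, 185 and 176 CPM in preMegE and 11.8, 5.94 and 7.13 CPM in LTHSC (log2 fold change 6.08 ± 0.99 SE, adjusted p = 0.00987). Hbb-bs, an adult beta globin gene whose counts were identical to those of Hbb-b1 in every library, was at 212, 31.0 and 21.8 CPM in preMegE and 13.9, 7.40 and 6.43 CPM in LTHSC (log2 fold change 3.25 ± 0.89 SE, adjusted p = 0.0402). PreMegE 1 carried most of both rises, and without it the log2 fold changes were 4.44 for Hba-a1 and 1.51 for Hbb-bs, still past the threshold. Hbb-bt and Hbb-b2, likewise identical in their counts, did not pass (log2 fold change 2.45 ± 0.81 SE, adjusted p = 0.0653), and without preMegE 1 had a log2 fold change of 0.80 (adjusted p = 0.107). The 6 tested globin genes thus stand for fewer separate measurements. Globin genes are short, with a median of 635 bases against 2824 bases over all genes tested, and the part of gene length in the level of preMegE 1 was not tested.

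Of 16 tested genes of heme synthesis and export, 7 rose and none fell, with a median of 1.27, and 13 of 17 rose without preMegE 1. Alad, an early enzyme of the pathway, and Urod, a later one, rose with log2 fold changes of 2.61 and 1.66. Abcb10, a mitochondrial transporter of the erythroid pathway, was at 86.2, 92.1 and 61.8 CPM in preMegE and 16.7, 14.3 and 17.6 CPM in LTHSC (log2 fold change 2.30 ± 0.29 SE, adjusted p = 0.00494). Slc25a38, the carrier that brings glycine into mitochondria for heme, was at 77.5, 81.0 and 107 CPM in preMegE and 15.8, 15.3 and 24.2 CPM in LTHSC (log2 fold change 2.26 ± 0.31 SE, adjusted p = 0.00626). For both carriers every preMegE library was above every LTHSC library. Tmem14c, which moves porphyrin across the inner membrane, rose by 3.36 (adjusted p = 0.00868, and 2.69 without preMegE 1) and Abcb6, a porphyrin transporter, by 2.19. Alas2, the erythroid enzyme of the first step, stayed low in both groups, at 8.14, 2.31 and 2.44 CPM in preMegE and 3.84, 5.70 and 3.54 CPM in LTHSC, and did not pass (log2 fold change -0.04 ± 0.68 SE, adjusted p = 0.971), and without preMegE 1 its log2 fold change was -0.89 (adjusted p = 0.258). Fech, which inserts iron into heme, was at 67.4, 229 and 300.3 CPM in preMegE and 107, 89.3 and 101 CPM in LTHSC (log2 fold change 1.01 ± 0.51 SE, adjusted p = 0.182), and without preMegE 1 its log2 fold change was 1.41 (adjusted p = 0.000767). Alas2 and Fech, like Alad and Urod, were named after their values were seen.

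Of 23 iron handling genes 6 rose (26.1%) and 1 fell (4.35%), beside 9.68% and 10.1% over all genes, and the median was 0.50. Without preMegE 1, 8 of 24 rose and 4 fell, beside 19% and 18% over all genes, and the median was 0.22. Besides Tfrc, Slc11a2, which carries iron out of the endosome, was at 74.6, 149.8 and 163 CPM in preMegE and 19.8, 26.9 and 31.8 CPM in LTHSC (log2 fold change 2.30 ± 0.38 SE, adjusted p = 0.0106). Steap3, the ferrireductase of that step, was at 32.8, 140.0 and 129 CPM in preMegE and 11.5, 4.24 and 7.55 CPM in LTHSC (log2 fold change 3.70 ± 0.63 SE, adjusted p = 0.0113). Slc40a1, the iron exporter ferroportin, was at 13.3, 48.9 and 62.9 CPM in preMegE and 4.57, 2.63 and 1.61 CPM in LTHSC (log2 fold change 3.84 ± 0.67 SE, adjusted p = 0.012). Uptake and export genes thus rose side by side, and for these 3 genes preMegE 1 was the lowest preMegE library. Scara5, a ferritin receptor, had 0 counts in preMegE and 1.39, 4.68 and 1.45 CPM in LTHSC and was at least 53.6-fold lower, taking a floor of 3 counts over the preMegE group.

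Of 36 megakaryocyte and platelet genes 8 rose (22.2%) and 5 fell (13.9%), beside 9.68% and 10.1% over all genes, with a median of 0.28. Without preMegE 1, 11 of 37 rose and 9 fell, beside 19% and 18% over all genes, with a median of 0.06. Gp1bb, a subunit of the platelet von Willebrand factor receptor, was at 228, 71.3 and 60.3 CPM in preMegE and 7.81, 6.53 and 6.80 CPM in LTHSC (log2 fold change 4.09 ± 0.57 SE, adjusted p = 0.00657), with a log2 fold change of 3.21 without preMegE 1. Serpine2, a thrombin inhibitor, was at 23.3, 45.6 and 60.3 CPM in preMegE and 2.78, 2.58 and 3.96 CPM in LTHSC (log2 fold change 3.79 ± 0.46 SE, adjusted p = 0.00473). Treml1, a platelet granule receptor, and F13a1, coagulation factor XIII, rose by 2.96 and 4.25. On the falling side, Angpt1, the ligand of the Tek receptor, was at 73.6, 111 and 80.3 CPM in preMegE and 473, 483 and 465 CPM in LTHSC (log2 fold change -2.42 ± 0.36 SE, adjusted p = 0.00759). Trpc6, a calcium channel, fell by 2.69 on the log2 scale. Genes of this list that are also known from stem cells, Mmrn1 and Angpt1, were thus among the 5 that fell. Vwf, the platelet adhesion protein also carried by megakaryocyte-biased stem cells, added here after its values were seen, was at 59.1, 68.5 and 40.9 CPM in preMegE and 31.7, 36.7 and 32.2 CPM in LTHSC and did not pass (log2 fold change 0.74 ± 0.29 SE, adjusted p = 0.0978). Pf4, platelet factor 4, was at 2715, 235 and 202 CPM in preMegE and 27.6, 14.4 and 14.0 CPM in LTHSC, (log2 fold change 5.81 ± 1.2 SE, adjusted p = 0.019), and without preMegE 1 its log2 fold change was 3.54 (adjusted p = 0.00013). Pf4, Mki67 and Car1, a carbonic anhydrase of red cells, are plotted outside the naming rule and were chosen after their values were seen.

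**Figure D4:**
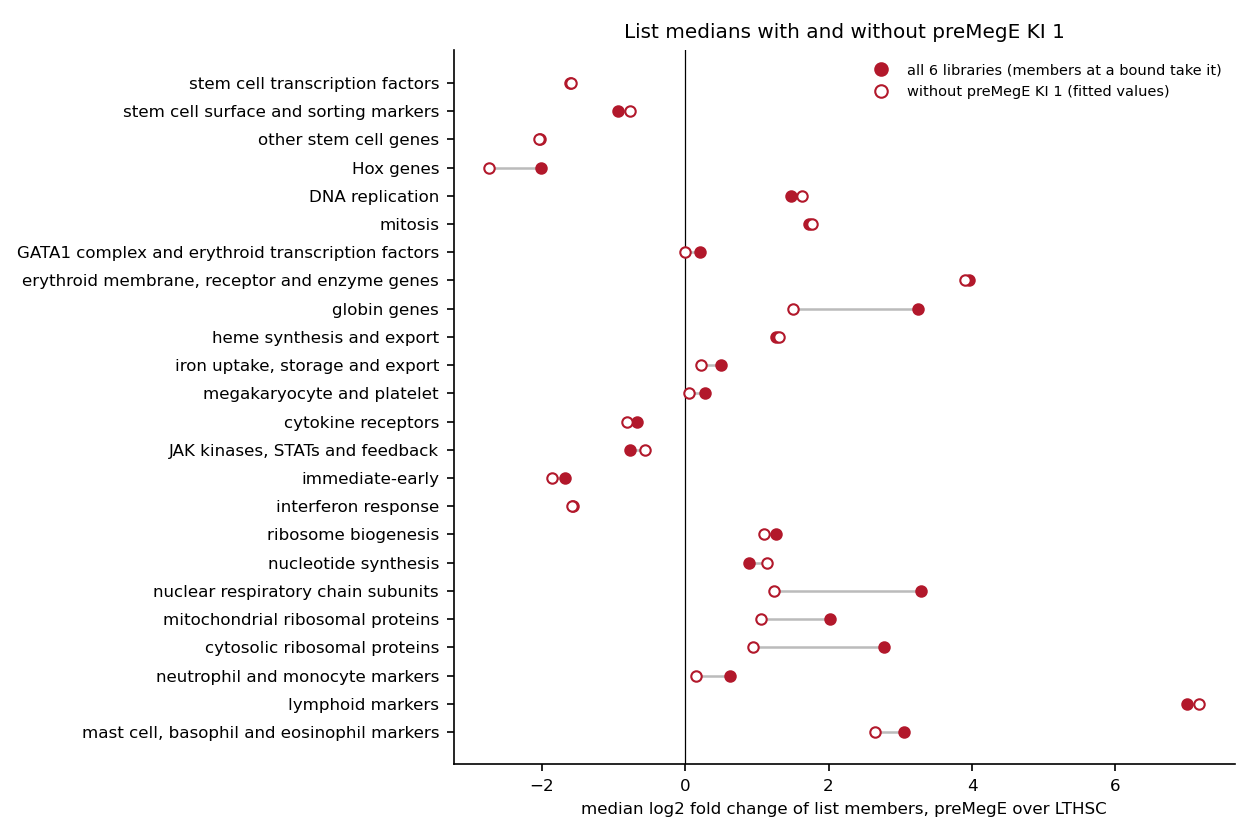
Median log2 fold change, preMegE over LTHSC, of each gene list with all 6 libraries (filled) and without preMegE 1 (open), with lists down the page. The stem cell transcription factor median is -1.61 with and -1.59 without it, while the globin median is 3.25 with and 1.51 without it and the respiratory chain median 3.28 with and 1.23 without it.

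Among 30 tested cytokine receptor genes, 3 rose (10%) and 7 fell (23.3%), beside 9.68% and 10.1% over all genes. The share of rises was thus near that over all genes. Without preMegE 1, 6 of 31 rose and 12 fell, beside 19% and 18% over all genes. Epor rose, as given above with the red cell genes. Il1rl1, the interleukin 33 receptor, was at 31.7, 40.8 and 46.8 CPM in preMegE and 0, 0 and 0.268 CPM in LTHSC (log2 fold change 8.66 ± 0.92 SE, adjusted p = 0.00348). Il2rg, the common gamma chain, Il6st, the shared signal chain of interleukin 6 receptors, and Ghr, the growth hormone receptor, fell with log2 fold changes of -1.72, -1.69 and -2.13.

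Downstream of these receptors, 9 of 30 JAK, STAT and feedback genes fell and none rose. Cish, a feedback inhibitor induced by STAT5, was at 32.2, 38.7 and 27.8 CPM in preMegE and 136, 191 and 158 CPM in LTHSC (log2 fold change -2.30 ± 0.29 SE, adjusted p = 0.00515). Socs2, another such inhibitor, was at 20.7, 24.9 and 28.3 CPM in preMegE and 103, 128 and 91.5 CPM in LTHSC (log2 fold change -2.12 ± 0.28 SE, adjusted p = 0.00581). In both the highest preMegE library was below the lowest LTHSC library. Socs3, Socs5 and Pim2, a survival kinase, fell with log2 fold changes of -2.63, -1.98 and -1.85. Stat3, Stat4 and Jak3 fell with log2 fold changes of -1.55, -2.24 and -1.85. Stat5a and Stat5b, the main carriers of erythropoietin signals, had log2 fold changes of -0.28 and -0.45 and did not pass (adjusted p = 0.559 and 0.392). Jak1 and Sh2b3, an adaptor that restrains JAK2, had log2 fold changes of -1.2 and -1.0 and adjusted p-values of 0.0515 and 0.052. Both passed in the fit without preMegE 1 (edgeR adjusted p = 0.00803 and 0.00682). Without preMegE 1, 12 of 30 fell and 1 rose.

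Immediate-early genes, which respond quickly to signals and also to cell handling, fell in 17 of 33 cases with none higher and a median of -1.67, and without preMegE 1 in 27 of 34 with 1 higher. Egr1, a zinc finger factor, was at 176, 258 and 131 CPM in preMegE and 2342, 1475 and 2084 CPM in LTHSC (log2 fold change -3.39 ± 0.55 SE, adjusted p = 0.00927). Nr4a1, an orphan nuclear receptor, was at 5.47, 12.2 and 5.95 CPM in preMegE and 197, 52.9 and 54.3 CPM in LTHSC (log2 fold change -3.67 ± 0.65 SE, adjusted p = 0.0121). LTHSC 1 was the highest library for both, and the groups did not overlap. Zfp36, which destabilises messenger RNA, and Dusp5, a MAP kinase phosphatase, fell with log2 fold changes of -2.82 and -2.91. The summed level of the list was 2996 to 4153 CPM in preMegE and 7450 to 12630 CPM in LTHSC, and time between sorting and lysis, which the labels do not give, was not tested.

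Interferon response genes fell in 26 of 49 cases, with none higher and a median of -1.56, and in 34 of 49 without preMegE 1. Iigp1, an interferon-inducible GTPase, was at 3.69, 6.17 and 4.11 CPM in preMegE and 125, 144 and 95.9 CPM in LTHSC (log2 fold change -4.69 ± 0.36 SE, adjusted p = 0.0017). Irgm2, a GTPase of the same system, was at 9.53, 20 and 15.4 CPM in preMegE and 126, 135 and 87.5 CPM in LTHSC (log2 fold change -2.94 ± 0.37 SE, adjusted p = 0.00508). Ifi44 was at 12.1, 7.90 and 6.21 CPM in preMegE and 96.1, 80.9 and 63.3 CPM in LTHSC (log2 fold change -3.21 ± 0.36 SE, adjusted p = 0.00369). In each the lowest LTHSC library was several times the highest preMegE library. Ifih1, a sensor of double-stranded RNA, fell by 1.85 on the log2 scale. Interferon-stimulated genes are known to carry response elements with a pair of GAAA runs 2 bases apart. Searched on both strands, the pair was found in 3.44% of all windows and in 3.85% of the tested genes with a window. The window of Irgm2, picked for holding a match, held 1 match. Only 32 of 49 tested genes (65.3%) had a window, below the 79.3% of all tested genes, and no share of the list is given. The 200 bases before the Irgm2 start are shown with the match in capitals.
Irgm2, chr11:58214777-58214976, plus strand: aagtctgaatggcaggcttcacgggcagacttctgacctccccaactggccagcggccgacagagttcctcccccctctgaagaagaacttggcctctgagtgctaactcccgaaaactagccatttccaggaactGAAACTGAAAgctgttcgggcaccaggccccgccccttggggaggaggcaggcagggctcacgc

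Genes of cell growth rose alongside those of the cell cycle. Of 26 ribosome biogenesis genes 11 rose and none fell, and 21 rose without preMegE 1. Nolc1, a nucleolar phosphoprotein, was at 328, 226 and 267 CPM in preMegE and 95.8, 72.9 and 82.2 CPM in LTHSC (log2 fold change 1.71 ± 0.32 SE, adjusted p = 0.014). Of 22 nucleotide synthesis genes 9 rose and none fell, and 18 rose without preMegE 1. Cad, which starts pyrimidine synthesis, was at 249.5, 143 and 132 CPM in preMegE and 41.9, 27.0 and 36.4 CPM in LTHSC (log2 fold change 2.31 ± 0.36 SE, adjusted p = 0.00893). Both genes were higher in every preMegE library than in any LTHSC library.

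Nuclear genes of the respiratory chain rose in 39 of 80 cases, mitochondrial ribosomal proteins in 42 of 78 and cytosolic ribosomal proteins in 15 of 79, with none lower in any of the 3 lists. Cyc1, cytochrome c1 of complex III, was at 614, 523 and 539 CPM in preMegE and 160.0, 150.4 and 170.5 CPM in LTHSC (log2 fold change 1.80 ± 0.36 SE, adjusted p = 0.0166). Ndufa10, a complex I subunit, was at 398, 313 and 364 CPM in preMegE and 137, 110.5 and 133 CPM in LTHSC (log2 fold change 1.5 ± 0.32 SE, adjusted p = 0.0211). These 2 differed little among the preMegE libraries, unlike Cox6b2, a complex IV subunit, at 1184, 65.8 and 59.4 CPM in preMegE and 12.8, 9.01 and 6.54 CPM in LTHSC (log2 fold change 5.53 ± 1.29 SE, adjusted p = 0.0256). Mrps18b, of the small mitochondrial subunit, rose by 1.94 and Rpl29, of the large cytosolic one, by 3.45, the second with 445, 48.6 and 58.5 CPM in preMegE and 19.6, 14.6 and 16.1 CPM in LTHSC. PreMegE 1 carried most of the rise of Cox6b2 and Rpl29, and without it their log2 fold changes were 2.72 and 1.67, both still past the threshold. The medians of the 3 lists were 3.28, 2.02 and 2.77 with preMegE 1 and 1.23, 1.05 and 0.95 without it, while 75, 66 and 60 members rose without it. Their median gene lengths were 744.5, 1053 and 703 bases. Among all genes under 1 kb 25.1% were higher and 1.58% lower, against 3.95% higher and 15.4% lower over 4 kb, so a length-related shift moved with these lists and its part in the rises was not tested. In preMegE 2 and 3 alone, genes under 1 kb lay 0.67 above LTHSC on the log2 scale at the median.

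Many of the largest rises started from 0 counts in LTHSC, for which only lower bounds can be given. Cldn13, a claudin known from mouse erythroid cells, had 477, 188 and 325 CPM in preMegE and 0 counts in LTHSC and was at least 5042-fold higher against a floor of 3 counts over the LTHSC group. Tspo2, an erythroid cholesterol and porphyrin transport protein, had 388, 106 and 146 CPM in preMegE and was at least 2864-fold higher. Sptb, erythrocyte beta spectrin, had 5.34, 29.2 and 24.8 CPM in preMegE and was at least 442-fold higher. Slc25a21, a mitochondrial oxodicarboxylate carrier, Col5a1, a fibrillar collagen chain, Scin, an actin-severing protein, and Zg16, a secretory granule lectin, were at least 803-, 607-, 474- and 285-fold higher. Asb17 and its antisense neighbour Asb17os on chromosome 3 also rose from 0, but the strand setting of the counts is not given and their reads cannot be told apart. The largest falls included Clip3, a microtubule linker protein, with 0 counts in preMegE and 12.8, 18.9 and 10.4 CPM in LTHSC, at least 289-fold lower. Efna1, an ephrin ligand, was at 0.127, 0 and 0.30 CPM in preMegE and 38.0, 40 and 36.0 CPM in LTHSC (log2 fold change -8.04 ± 0.86 SE, adjusted p = 0.00348). Vegfc, a lymphangiogenic growth factor, was at 0, 0.441 and 0.171 CPM in preMegE and 22.2, 28.8 and 29.1 CPM in LTHSC (log2 fold change -6.71 ± 0.72 SE, adjusted p = 0.00348). These genes were nearly silent in every preMegE library. Chst2, Clec1a, Ptges, Vnn1, Chad and Yes1 fell with log2 fold changes of -7.44, -6.06, -5.99, -5.82, -5.82 and -5.74. Snurf, which shares its locus with Snrpn so that their counts cannot be separated, had -5.73.

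Lymphoid markers, which neither sorted population is named for, rose as a group: 14 of 20 tested were higher and none lower. Without preMegE 1, 17 of 22 were higher and none lower. The list holds early B-cell genes and also T and NK cell genes, and the members named here are early lymphoid and B-cell genes. Igll1, a surrogate light chain of pre-B cells, was at 514, 223 and 99.7 CPM in preMegE and at 0, 0 and 0.0536 CPM in LTHSC, where it had 1 count in all, a ratio of 11578 with a 95% exact counting interval of 2078 to 457332. Ebf1, a B-cell commitment factor, was at 26.9, 39.8 and 28.6 CPM in preMegE and had 0 counts in LTHSC, so it was at least 613-fold higher. Dntt, the terminal transferase of early lymphocytes, was at 84.5, 130.1 and 86.3 CPM in preMegE and 1.06, 1.41 and 0.964 CPM in LTHSC (log2 fold change 6.44 ± 0.38 SE, adjusted p = 0.000899). Il7r, the interleukin 7 receptor, was at 40.8, 15.7 and 10.5 CPM in preMegE and 0 in LTHSC, at least 307-fold higher, and Cd79a, a B-cell receptor chain, had 3 counts in LTHSC and a ratio of 1138 (388.9 to 5518). All 3 preMegE libraries carried these genes. The summed level of the 20 tested lymphoid markers, most of it from members not named here, was 5758, 1512 and 1023 CPM in preMegE, highest in preMegE 1, against 128, 141 and 152 CPM in LTHSC. Of 26 markers in the table, 1 was at 0 in all preMegE libraries and 10 in all LTHSC libraries. The makeup of the sorted cells was not measured, and the part of these markers in other results was not tested.

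Mast cell and basophil markers also rose, 4 of 9 tested with none lower. Cpa3, the mast cell carboxypeptidase, was at 59.0, 98.0 and 204 CPM in preMegE and 4.17, 4.68 and 3.91 CPM in LTHSC (log2 fold change 4.82 ± 0.52 SE, adjusted p = 0.00348). Fcer1a, the IgE receptor chain, was at 33.4, 22.1 and 35.6 CPM in preMegE and 0.992, 2.39 and 0 CPM in LTHSC (log2 fold change 4.73 ± 1.06 SE, adjusted p = 0.0234). The summed level of the list was 209.6, 249 and 345 CPM in preMegE and 32.3, 37.7 and 10.5 CPM in LTHSC, with 4 of 19 markers at 0 in all preMegE and 8 in all LTHSC libraries. Of 26 neutrophil and monocyte markers 3 rose and 2 fell, near the shares over all genes, and without preMegE 1, 7 rose and 3 fell. Irf8, a monocyte and dendritic cell factor, was at 93.8, 86.4 and 52.4 CPM in preMegE and 11.0, 8.52 and 5.84 CPM in LTHSC (log2 fold change 3.20 ± 0.38 SE, adjusted p = 0.0044). Ctsg, cathepsin G of granules, was at 402, 193 and 141 CPM in preMegE and 9.13, 34.8 and 12.9 CPM in LTHSC (log2 fold change 3.69 ± 0.65 SE, adjusted p = 0.0121). Csf3r, the receptor of granulocyte colony-stimulating factor, fell by 1.69 on the log2 scale. The summed level of this list was 4575, 3871 and 3376 CPM in preMegE and 1468, 3737 and 1523 CPM in LTHSC, so LTHSC 2 reached the preMegE range, and the part of mature myeloid cells was not tested. Of 5 tested macrophage markers, 1 rose and 2 fell, and of 5 tested stroma and endothelium markers 1 fell and none rose.

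The VF line went through the same change of population, and a test of the difference found few genes whose change differed between the lines. In a fit of the 12 libraries of both lines, 2874 genes (20%) rose and 2553 (17.7%) fell in KI, and 984 (6.84%) rose and 1521 (10.6%) fell in VF. Of these, 2117 genes were called in both lines in the same direction and 1, Podxl, in opposite directions. The difference of the 2 changes passed for 4 of 14387 genes (0.0278%), 1 with the higher and 3 with the lower change in KI, beside 990 at an unadjusted p under 0.05. Elane, neutrophil elastase, was at 94.0, 77.2 and 82.9 CPM in KI preMegE and 20.4, 89.6 and 60.4 CPM in KI LTHSC, and at 2507, 616 and 946 CPM in VF preMegE and 9.85, 13.4 and 15.4 CPM in VF LTHSC. Its log2 fold change was 0.57 in KI and 6.72 in VF, a difference of -6.14 ± 0.80 (SE, edgeR adjusted p = 0.0203). Fcgr3, a low-affinity IgG receptor of the CD16/32 pair used to sort myeloid progenitors, had log2 fold changes of 0.22 in KI and 5.49 in VF, a difference of -5.26 ± 0.61 (adjusted p = 0.011). Hdc, the histamine-making enzyme of basophils and mast cells, had 2.30 in KI and 5.88 in VF, a difference of -3.57 ± 0.51 (adjusted p = 0.0268). Hdc rose further in VF than in KI, while Elane and Fcgr3 rose in VF and did not pass in KI (edgeR adjusted p = 0.415 and 0.701). Mean LTHSC levels of Elane and Fcgr3 were 56.8 and 5.74 CPM in KI, against 12.9 and 1.33 CPM in VF. Of the 26 neutrophil and monocyte markers, 2, Elane and Fcgr3, passed the test of the difference. Podxl, an anti-adhesive sialomucin, was at 145, 71.7 and 74.4 CPM in KI preMegE and 17.8, 30 and 16.2 CPM in KI LTHSC, against 28.3, 21.8 and 20 CPM in VF preMegE and 93.9, 65.3 and 47.6 CPM in VF LTHSC. It rose in KI (log2 fold change 2.18) and fell in VF (-1.56), a difference of 3.74 ± 0.52 (adjusted p = 0.0249). Without preMegE KI 1, 14 genes (0.0946%) passed. Leaving out preMegE VF 3, LTHSC VF 1 or LTHSC VF 2 left 0, preMegE KI 3 or LTHSC KI 3 left 1, and preMegE VF 1, LTHSC KI 1 or LTHSC VF 3 left 2. The neutrophil and monocyte list had 7 of 26 higher and 3 lower in KI and 13 higher and 1 lower in VF.

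**Figure D5:**
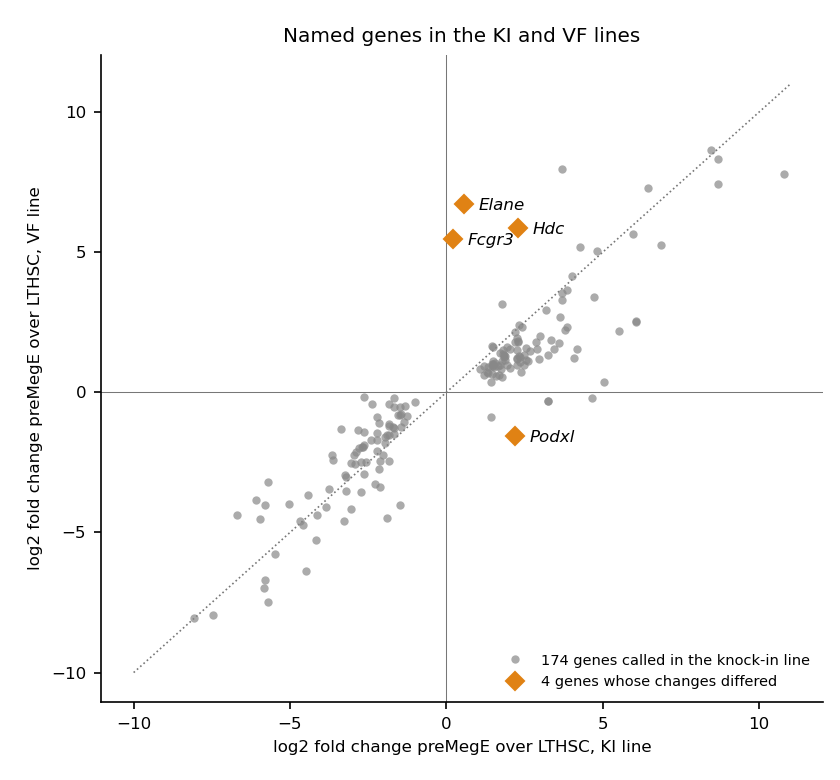
Log2 fold change preMegE over LTHSC in the KI line (horizontal axis) and in the VF line (vertical axis) for 174 named genes called in KI and not at a count bound (grey), with the line of equal change dotted. Orange diamonds mark the 4 genes whose changes differed by the interaction test; 3 lie above the line and Podxl below it.

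For the main groups the 2 lines can be set side by side, with no test of the lists. Over all genes this fit called 20% higher and 17.7% lower in KI, against 6.84% and 10.6% in VF. Calls were thus fewer in VF over all genes as well. Red cell membrane genes rose in 23 of 30 cases in KI and 22 of 30 in VF, and interferon genes fell in 32 of 49 and 30 of 49. DNA replication genes rose in 33 of 38 in KI and 18 of 38 in VF, with medians of 1.48 and 0.90, and immediate-early genes fell in 23 of 34 in KI and 10 of 34 in VF. No gene of these 4 lists differed between the lines by the test. Respiratory chain genes rose in 74 of 81 cases in KI and 9 of 81 in VF, with preMegE KI 1 in the fit. Their medians were 3.315 in KI and 1.358 in VF, and 0 of them differed between the lines by the test. In the fit of the KI line alone, the median without preMegE 1 was 1.23. Jak2 itself had log2 fold changes of -0.78 in KI and -0.85 in VF, each past the threshold in this larger fit (adjusted p = 0.0284 and 0.0358), and their difference was 0.07 (adjusted p = 0.982).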

How the data were processed

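The deposited table held whole-number read counts per gene for 24 libraries, made by the authors with STAR 2.7.0c and featureCounts of Subread 1.6.4 on mm10, per the submitters' processing notes; the annotation, strand setting and handling of reads with several matches are not given in the sources used here. A deposited gene length column, of another unit, was used as bases. The table calls the preMegE samples MEP, and its columns were matched to them by genotype and number. The 16 rows without a symbol held at most 0.013% of any library and were left out, and 24374 of 24454 gene IDs matched RefSeq.

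Counts of the 6 libraries were filtered with filterByExpr, scaled by TMM and tested with the quasi-likelihood F test of edgeR 4.0.16 in R 4.3.3 (robust, 2-sided, Benjamini-Hochberg 0.05). SE is the log2 fold change over the root of F. The difference between lines was an interaction term over 12 libraries. The scripts were tested on simulated data. Intervals are 95% exact and, like the floor of 3 counts over a group, cover counting error only, since reads carried no molecular identifiers. Sequences are RefSeq promoter windows of GRCm38.p6. No 2 libraries were copies.

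The comparison, its members and the gene lists were chosen with earlier results of these data known. Genes named were the 12 largest rises and falls with no overlap, a higher group averaging 10 CPM or more and the same direction without preMegE 1 (predicted genes, pseudogenes and sex-linked genes left out), up to 4 members per list and direction by smallest adjusted p, any member of the sorting, globin, JAK-STAT and replication lists, and the genes passing the interaction test. Some genes that the rule names are not reported here. Others are named as chosen after their values were seen. Alternatives were RLE scaling, total counts alone, no filter, a filter at 10 counts, DESeq2 1.42.0, limma 3.58.1 voom, a null fold of 2, all 24 libraries, a replicate block and each library left out.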

Additional observations from a re-analysis of the deposited data

Results flagged for a closer look

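In 4 genes the change from LTHSC to preMegE differed between the KI and VF lines by the interaction test over 12 libraries. Fcgr3, the IgG receptor gene, was at 4.77, 5.33 and 9.89 CPM in KI preMegE and 4.44, 7.86 and 4.94 CPM in KI LTHSC, which overlap, and at 87.4, 32.3 and 60.1 CPM in VF preMegE and 1.6, 1.22 and 1.18 CPM in VF LTHSC, a difference of changes of -5.26 ± 0.61 (SE, edgeR adjusted p = 0.011). Elane, neutrophil elastase, had a difference of -6.14 (adjusted p = 0.0203), with KI groups that overlap and VF groups that do not. Hdc, which makes histamine, was at 16.3, 37.8 and 17.6 CPM in KI preMegE and 5.75, 3.37 and 5.5 CPM in KI LTHSC, and at 105, 96.3 and 70.9 CPM in VF preMegE and 1.56, 1.33 and 1.73 CPM in VF LTHSC, a difference of -3.57 (adjusted p = 0.0268). Podxl, the sialomucin, moved in opposite directions in the lines, higher in all 3 KI and lower in all 3 VF preMegE libraries than in any LTHSC library of the same line, a difference of 3.74 (adjusted p = 0.0249). All 4 also passed without preMegE KI 1. Cre driver and Jak2 allele change together between the lines and cannot be told apart.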

How the results depend on the processing

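With 1283 genes higher and 1333 lower as reported, total counts alone gave 473 higher, with a median of -0.49 over all genes so that only 24.8% of its calls were higher, against 49% as reported. DESeq2 gave 2087 higher and 2007 lower, a null fold change of 2 gave 264 and 361, and a fit of all 24 libraries gave 2553 higher, 58.2% of its calls. Leaving out 1 library gave 153 to 2616 higher and 220 to 2486 lower. The difference between the lines, 4 genes (1 higher, 3 lower), was 7 without a filter (2 and 5), 78 with DESeq2 (46 and 32) and 0 to 14 with 1 library left out (0 to 4 higher, 0 to 10 lower). The causes were not tested.

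Of 193 called genes named, 193 kept their call under RLE scaling, 144 under total counts alone, 189 with DESeq2 (4 without an adjusted p), 107 with a null fold of 2 and 193 without preMegE 1, but 91, 84 and 87 without LTHSC 1, 2 and 3, and 0 turned direction in any of these. Jak2 kept its direction and did not pass under any of these alternatives, at -1.26 to -0.63, although the same difference passed in the 12-library fit of both lines. Among uncalled genes, Fcgr3 was at -0.23 with total counts alone and -0.17 to 0.51 with 1 library left out. Alas2, at -0.04, was at 0.048 with RLE scaling, 0.044 with DESeq2 and -0.89 to 0.28 with 1 library left out.

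Same-numbered preMegE and LTHSC libraries deviated together with correlations of 0.135, 0.0513 and 0.0176, and only number 1 correlated best with its own number, so the numbers were not taken to pair libraries. A replicate block gave 1024 higher and 1218 lower, and 8 genes (3 and 5) for the difference between lines.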

Other observations

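The shares over all genes were 9.68% higher and 10.1% lower, and 19% and 18% without preMegE 1. Imprinted genes of quiescence fell in 5 of 9 cases and 1 rose. Grb10, a growth factor receptor adaptor, was at 31.9, 48.1 and 29.4 CPM in preMegE and 96.0, 98.6 and 111 CPM in LTHSC (log2 fold change -1.48 ± 0.30 SE, adjusted p = 0.0169), and Meg3, a maternally expressed non-coding RNA, had a ratio of LTHSC to preMegE of 329 (58.5 to 13022, 95% exact counting interval). In glucose metabolism 4 of 28 genes fell and none rose, and without preMegE 1 the count was 5 each way. Ldhb, a lactate dehydrogenase subunit, was at 54.3, 36.2 and 26.8 CPM in preMegE and 217, 263 and 242 CPM in LTHSC (log2 fold change -2.63 ± 0.36 SE, adjusted p = 0.00594), and Slc2a3, a glucose transporter, fell too (log2 fold change -1.91 ± 0.40 SE, adjusted p = 0.0203). Of 30 stress response genes 5 were higher and 3 lower (12 and 5 without preMegE 1). Trib3, a pseudokinase induced by ATF4, was at 2.92, 3.39 and 2.18 CPM in preMegE and 38.1, 41.5 and 69.7 CPM in LTHSC (log2 fold change -4.13 ± 0.40 SE, adjusted p = 0.00282), and Ddit3, another target of that factor, at 289, 53.1 and 66.8 CPM in preMegE and 26.2, 30.7 and 20.3 CPM in LTHSC (log2 fold change 2.40 ± 0.65 SE, adjusted p = 0.0398). PreMegE 1 carried most of the Ddit3 difference, and without it the log2 fold change was 1.21 (adjusted p = 0.00667).

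Among p53 targets 3 of 20 rose and 1 fell (5 and 4 without preMegE 1), with Phlda3, a repressor of AKT, at 39.0, 34.6 and 23.8 CPM in preMegE and 1.79, 0.584 and 3.05 CPM in LTHSC (log2 fold change 4.16 ± 0.62 SE, adjusted p = 0.00798). Of 23 DNA methylation and polycomb genes 2 rose and 3 fell, close to the shares over all genes (3 and 8 of 24 without preMegE 1), and Cbx7, a polycomb reader of stem cells, was at 6.99, 12.9 and 11.2 CPM in preMegE and 42.5, 48.6 and 56.7 CPM in LTHSC (log2 fold change -2.24 ± 0.34 SE, adjusted p = 0.00818). In antigen presentation 3 of 18 fell and none rose (8 fell without preMegE 1), Cd74, the invariant chain, among them (log2 fold change -1.90 ± 0.40 SE, adjusted p = 0.0198). Adhesion and niche genes had 2 of 20 higher and 2 lower, near the shares over all genes (3 and 5 of 21 without preMegE 1), and Itgal, the integrin chain of LFA-1, was at 45.9, 56.9 and 34.8 CPM in preMegE and 3.51, 0.633 and 4.50 CPM in LTHSC (log2 fold change 4.00 ± 0.68 SE, adjusted p = 0.0111). Cholesterol synthesis had 2 of 24 higher and 1 lower, no more than over all genes (3 and 6 without preMegE 1). Of 7 genes of RNA handling and heat shock 2 rose, Hspa1a and its near copy Hspa1b, the second at 70.0, 19.2 and 45.8 CPM in preMegE and 0.595, 0.390 and 3.05 CPM in LTHSC (log2 fold change 5.05 ± 0.89 SE, adjusted p = 0.0123). Of 6 sex-linked genes 1 fell and none rose.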
